A study of Homo sapiens with 15 samples.

Results

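The members were all probe sets whose single gene symbol begins with KCN, with CACN, or with SCN followed by a digit. These prefixes name the subunit genes of potassium, calcium and sodium channels. The array carried 278 such probe sets among its 54675, and they stood for 136 genes. Another 5 probe sets that name such a gene together with another gene, in some cases also a channel gene, were left out, since their signal cannot be given to 1 gene. The symbol rule itself used no measured value, but it was set with earlier results of these data known.

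All arrays came from IMR32, a human neuroblastoma line, in a single derived clone. The clone carried a tetracycline repressor under the constitutive CMV promoter and a hairpin construct against CDK2 (target nucleotides 546 to 566 of its mRNA) that doxycycline at 100 ng/ml releases from repression. Every group was this same clone, grown in medium with 10% serum: the 0 h cells before induction and cells taken 8, 24, 48 and 72 h after it, with 3 arrays a time and 15 in all. The labels print the times with no unit, and hours are assumed here. Time in culture, doxycycline and CDK2 loss cannot be told apart at any later time, because no arm without doxycycline and no arm with another hairpin was sampled then. The labels do not say whether the 3 arrays of a time were separate cultures, so the p-values reflect the spread among these arrays alone, and that spread may be technical.

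Voltage-gated channels are membrane pores that open when the membrane depolarises. Sodium channels carry the upstroke of the action potential, calcium channels couple it to secretion and signalling, and potassium channels bring the membrane back to rest. Each pore subunit works with auxiliary subunits that set its amount at the surface and its gating, and the precursors of sympathetic neurons, from which neuroblastoma arises, acquire such channels as they mature.

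The name voltage-gated fits only part of the members. Of the 136 genes, 54 encode pore-forming subunits of sodium, calcium or Kv potassium channels and 30 encode auxiliary subunits. Another 27 encode inward rectifiers or tandem-pore (K2P) leak channels and 11 encode channels or subunits of the calcium- or sodium-activated type, which other signals open in full or in part. The remaining genes were 13 noncoding or antisense RNAs of channel loci and KCNRG, which encodes a soluble regulator of Kv channels.

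Most members were dim. A probe set was called bright when its mean on the log2(signal + 16) scale lay at or above the median of all probe sets that are not controls, which corresponds to a MAS5 signal of 16.6. MAS5 is the array maker's summary of a probe set into 1 signal, and the 16 added damps the noise of low signals, so a log2 change understates the change of a dim gene. By this split 79 of the 278 members were bright (28.4%), against 50% of all probe sets that are not controls. At the level of genes, 49 of 136 (36.0%) had a bright probe set and entered the test, against 11774 of 19775 genes on the whole array (59.5%). All 3 calcium channel beta subunit genes had a bright probe set, but only 4 of 9 sodium channel alpha genes, 3 of 10 calcium channel alpha1 genes and 14 of 35 Kv alpha genes did. Just inside the split lay SCN9A (17.0), KCNJ2 (17.0) and KCNV1 (17.7), and just outside it KCNIP4 (16.3), KCNJ11 (15.5) and KCNJ14 (15.5), as mean signals taken back from the log scale. With the plain mean signal set against 16.6 instead, 4 more member probe sets would be bright, of KCND2, KCNIP4, KCNJ11 and KCNK3. In that fit 31 member genes were called at 72 h against 0 h, where the main fit called 29.

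**Figure D1:**
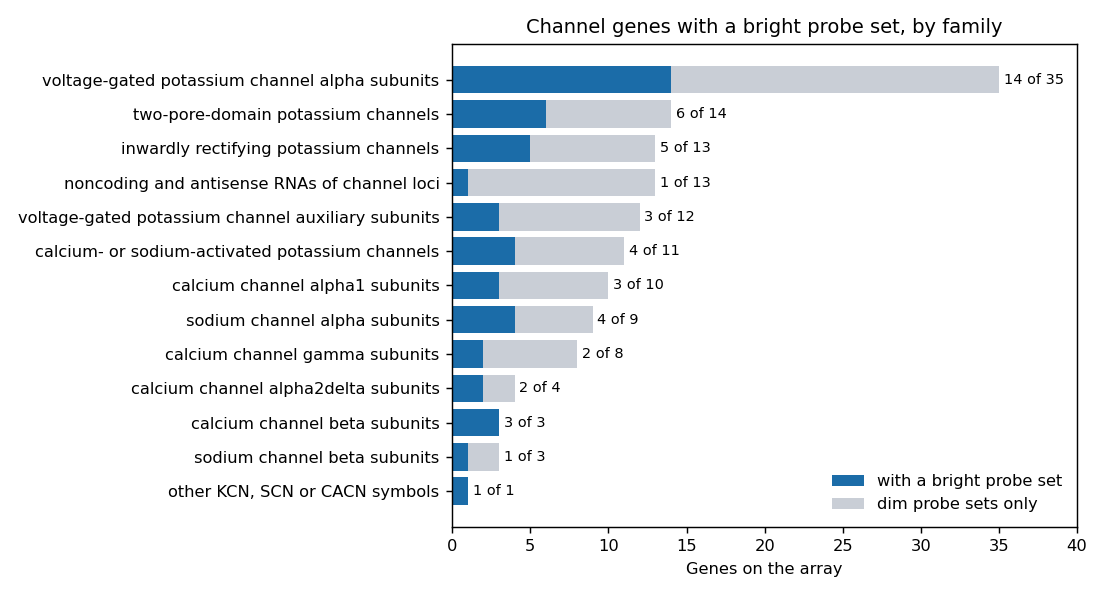
Number of member genes on the array in each channel family (x axis, genes), divided into those with a bright probe set (blue) and those with dim probe sets only (grey), with the bright count of the total beside each bar. Kv alpha subunits were the family with the most genes (14 of 35 bright), and noncoding RNAs had 1 bright gene of 13.

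Promoter sequences were given for 102 of the 136 member genes, from 250 bases before to 50 bases after the RefSeq start. Those of CACNA1B and SCN1A are shown because they encode the calcium and sodium channel pores that rose most among genes with an entry, and those of KCNG3 and KCNS3 because both genes encode silent Kv subunits that fell. Each is printed 5′ to 3′ on the strand of its gene, with capitals on every match, on either strand, to an E-box (CACGTG), an E2F core (TTGGCGC or TTCCCGC), the CCAAT box, whose name gives its letters, a GC box (GGGCGG) or a REST half-site (CAGCACC or GGACAGC). The build is GRCh38.p14, and the positions are chr9:137877532-137877831 on the plus strand for CACNA1B, chr2:166127971-166128270 on the minus strand for SCN1A, chr2:42493933-42494232 on the minus strand for KCNG3 and chr2:17877597-17877896 on the plus strand for KCNS3.
CACNA1B: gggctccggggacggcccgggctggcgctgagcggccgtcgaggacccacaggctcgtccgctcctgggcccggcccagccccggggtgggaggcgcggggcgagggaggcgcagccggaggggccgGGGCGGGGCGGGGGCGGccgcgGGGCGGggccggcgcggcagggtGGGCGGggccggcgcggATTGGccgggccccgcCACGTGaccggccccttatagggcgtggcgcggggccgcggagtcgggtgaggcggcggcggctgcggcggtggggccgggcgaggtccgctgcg
SCN1A: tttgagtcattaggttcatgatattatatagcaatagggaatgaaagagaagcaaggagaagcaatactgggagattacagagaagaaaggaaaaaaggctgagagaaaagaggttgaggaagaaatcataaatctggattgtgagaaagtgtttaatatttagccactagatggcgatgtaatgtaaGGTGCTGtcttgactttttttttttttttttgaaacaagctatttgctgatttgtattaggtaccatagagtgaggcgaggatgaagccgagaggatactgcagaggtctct
KCNG3: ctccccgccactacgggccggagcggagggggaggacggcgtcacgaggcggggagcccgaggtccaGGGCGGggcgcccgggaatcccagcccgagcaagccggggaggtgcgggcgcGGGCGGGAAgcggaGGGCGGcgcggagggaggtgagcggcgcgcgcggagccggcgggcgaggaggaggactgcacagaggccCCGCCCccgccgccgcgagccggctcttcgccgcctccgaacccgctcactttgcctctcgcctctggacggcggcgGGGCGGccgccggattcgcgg
KCNS3: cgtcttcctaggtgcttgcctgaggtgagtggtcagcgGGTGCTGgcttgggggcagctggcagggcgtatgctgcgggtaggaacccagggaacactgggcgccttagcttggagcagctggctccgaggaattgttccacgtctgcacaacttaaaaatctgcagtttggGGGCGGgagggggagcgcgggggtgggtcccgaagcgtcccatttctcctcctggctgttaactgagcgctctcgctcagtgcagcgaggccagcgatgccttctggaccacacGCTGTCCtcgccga

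The 4 promoters differ widely in composition. CACNA1B had a GC content of 85.3% and 49 CpG pairs, with 5 GC box matches that partly overlap, 1 CCAAT box on the minus strand and 1 E-box. SCN1A had a GC content of 37.0% and 3 CpG pairs, and its 1 match was a REST left half-site. KCNG3 had a GC content of 80.0% and 49 CpG pairs with 5 GC boxes and 1 E2F core that overlaps a GC box. KCNS3 had a GC content of 63.0%, 19 CpG pairs, 1 GC box and 1 match to each REST half-site. Over the 102 member promoters the median GC content was 65.2%, against 58.3% over all 27305 promoters of the same length. A GC box was found in 60.8% of member promoters and in 44.6% of all, a CCAAT box in 32.4% and 35.7%, an E-box in 4.90% and 7.43%, an E2F core in 9.80% and 9.33%, and the left and right REST half-sites in 10.8% and 10.8% of members and in 7.64% and 6.11% of all. Median GC content was 71.3% over the 18 promoters of members higher at 72 h and 69.5% over the 4 of members lower. It was 72.7% over the 13 of bright members not called at 72 h, and 61.7% over the 67 of genes with dim probe sets only. These are counts of letters in the window and say nothing of binding.

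Calls came late, among members and over all genes alike. Each later time was set against the same 3 arrays at 0 h in a limma fit over all 11774 genes, with Benjamini-Hochberg adjustment and a threshold of 0.05, so these comparisons share their controls and are not independent of each other. At 8 h none of the 49 tested members was called (6 had an unadjusted p under 0.05), where 0.45% of all genes were. At 24 h 7 members were called, 5 higher and 2 lower, against 13.5% of all genes (7.74% higher and 5.72% lower). At 48 h 23 were called, 17 higher and 6 lower, against 44% of all genes (26.3% and 17.7%). Of the 32 potassium channel genes tested, 14 were among these 23 (8 higher and 6 lower), near the share of all genes. At 72 h 29 were called, 22 higher and 7 lower, against 55.5% of all genes (32.8% and 22.7%). In percent of the 49 tested, the calls amounted to 14.3, 46.9 and 59.2 at these times, close to the background each time. The share of tested members called higher at 72 h was 44.9% and the share called lower was 14.3%. The F test over the 4 differences from 0 h called 29 members, against 57% of all genes.

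All 7 members called at 24 h and 21 of the 23 called at 48 h were called the same way at 72 h, and no member was called in opposite directions in any comparison. The comparisons with 0 h share their controls, and the same counts over all genes were not computed. This agreement is therefore not read as a trait of the members. The median log2 change of the 49 members was 0.01, 0.01, 0.24 and 0.31 at 8, 24, 48 and 72 h, and that of all genes tested was 0.02, 0.05, 0.08 and 0.10. The brightness filter bears on this balance. Of the 49 genes, 7 had a 0 h mean below the split and passed it only through later times, and all 7 (CACNA2D2, KCNAB2, KCNH8, KCNJ2, KCNJ4, SCN1A and SCN9A) were called higher at 72 h. Among the other 42, 15 were called higher and 7 lower. The balance also moved with the scaling between arrays. After centring each array on its median, the calls were 2 higher and 2 lower at 24 h, 11 and 8 at 48 h and 16 and 9 at 72 h, and after quantile normalisation 3 and 3, 11 and 9, and 16 and 10. Calls over all genes were not counted under either scaling, so these counts have no share to be set against. Centring moved the median of all genes at 72 h from 0.10 to -0.01 and that of the members from 0.31 to 0.20. An absolute log2 change of 1 or more in addition was reached by 3 members at 48 h (2 higher, 1 lower) and by 7 at 72 h (6 higher, 1 lower), against 2.37% and 2.51% of all genes at 48 h and 5.34% and 4.95% at 72 h. Set against the time before it, 4 members were called at 24 h, 10 at 48 h and 2 at 72 h, against 5.78%, 22.9% and 10.7% of all genes. The count of calls against 0 h at 24 h was 3 without the first 0 h array or the third 24 h array and 4 without the first 24 h array, and that at 48 h was 15 without the second 48 h array.

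**Figure D2:**
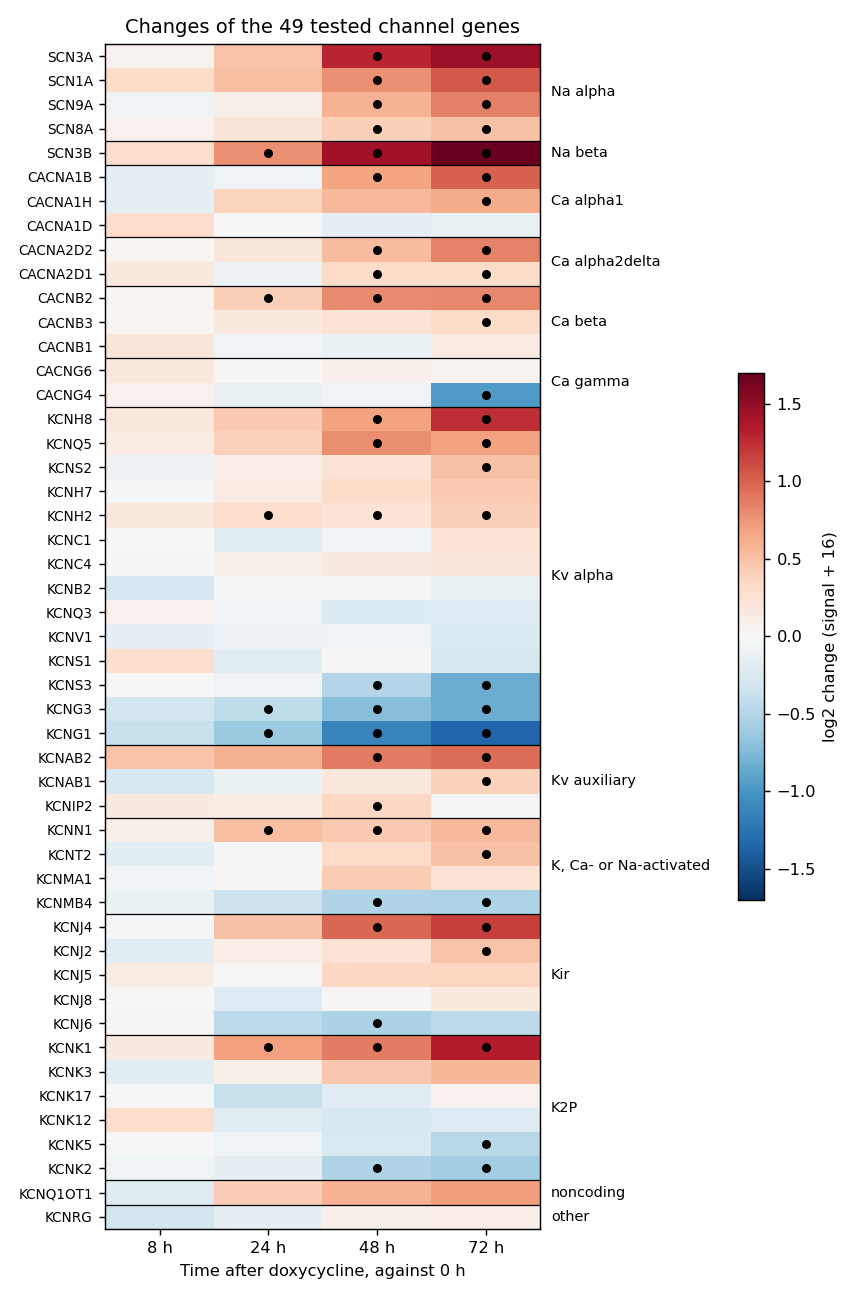
Log2 change from 0 h (colour, red higher and blue lower, on the log2(signal + 16) scale) of the 49 tested member genes in rows grouped by family, at 8, 24, 48 and 72 h in columns. Black points mark limma adjusted p under 0.05: 0, 7, 23 and 29 genes at the later times in order, with the 5 sodium channel genes at the top called at both late times.

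Of 12 sodium channel genes on the array 5 were tested, and all 5 were called higher at 48 h and at 72 h, where 26.3% and 32.8% of all genes were. SCN1A and SCN9A, however, lay below the split at 0 h and passed the filter only through the arrays where they are high, and the 48 h call of SCN8A was lost under both other scalings, so the count is not read against these shares. At 24 h 1 of the 5 was called. In bulk RNA, fewer cells that express a gene and less of its RNA per cell cannot be told apart, here or below.

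SCN3B, the beta subunit that modulates sodium channel gating and traffic, had the largest change among the 49 tested members. Its signal was 125.5, 129.8 and 113.1 on the 0 h arrays, 157.7, 153.5 and 154.2 at 8 h, 229.4, 220.2 and 216.3 at 24 h, 348.5, 369.2 and 358 at 48 h and 455.6, 457.9 and 381.4 at 72 h. No array of a later time overlapped the 0 h arrays, and each time lay above the one before it. The log2 change was 0.30 ± 0.09 (SE) at 8 h, which was not called (limma, adjusted p = 0.188), and 0.78, 1.43 and 1.69 at 24, 48 and 72 h (7.82e-06, 7.68e-10 and 2.38e-11). A second bright SCN3B probe set rose alongside, from 95.8 ± 6.89 (SD, n = 3) at 0 h to 355 ± 42.6 at 72 h, a log2 change of 1.72. Tested among all 27307 bright probe sets, it was the only one of the 79 bright member probe sets called at 8 h (log2 change 0.55, limma adjusted p = 0.0209), where 0.242% of bright probe sets were called.

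SCN3A encodes the sodium channel pore that predominates in the embryonic nervous system. Its signal was 69.6, 82.8 and 96 at 0 h, 63.6, 93.9 and 108.3 at 8 h, 113.4, 127.7 and 122.5 at 24 h, 180.9, 223.2 and 281 at 48 h and 247.9, 262.4 and 252.5 at 72 h. The 8 h arrays spread on both sides of the 0 h range, and the 48 h and 72 h arrays all lay above it. The log2 change was 0.07 at 8 h, 0.48 at 24 h (limma, adjusted p = 0.0501, not called), 1.29 at 48 h (3.43e-06) and 1.46 ± 0.16 (SE) at 72 h (4.02e-07). At 24 h it was called in 6 of the fits that left out 1 array, those without the first 8 h or 48 h array or the third array of 0, 8, 48 or 72 h, and with the replicate number as a block (0.0088).

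SCN1A and SCN9A, further pores, were below the split at 0 h and above it at 72 h. SCN1A, a pore of central neurons, read 10.5, 8.5 and 4.7 at 0 h and 24.6, 32.6 and 44.1 at 72 h, with no overlap. Its log2 change was 0.31, 0.51, 0.77 and 1.05 ± 0.19 (SE) at 8, 24, 48 and 72 h, called at 48 h (limma, adjusted p = 0.00274) and 72 h (0.000132). SCN9A, a pore of peripheral sensory and sympathetic neurons, read 8.2, 10.2 and 14.5 at 0 h and 26, 39.6 and 33.4 at 72 h. Its log2 change was -0.07, 0.11, 0.60 and 0.86 ± 0.16, called at 48 h (0.00631) and 72 h (0.000225). The size at 72 h depended on the number added before the log: adding 1 gave 1.99 for SCN1A and 1.52 for SCN9A, and adding 64 gave 0.44 and 0.37, all called.

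SCN8A, a pore of the axon initial segment, was called on 1 of its 5 bright probe sets. That probe set read 50.7, 60.8 and 55.5 at 0 h and 112.1, 76.4 and 71.1 at 72 h, with the first 72 h array standing above the other two. The log2 change was 0.40 at 48 h (limma, adjusted p = 0.0476) and 0.50 at 72 h (0.0132). The other 4 probe sets changed by 0.01 to 0.29 on the log2 scale at 72 h, none of them called, and the mean of all its probe sets gave 0.21 (adjusted p = 0.231). The 72 h call was lost without the first 0 h or the first 72 h array (0.33 to 0.45, adjusted p from 0.0501 to 0.0969), and the 48 h call was lost in 11 of 15 fits that left out 1 array (0.0518 to 0.136). It was also lost after centring (0.31, 0.101) and quantile normalisation (0.28, 0.129).

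**Figure D3:**
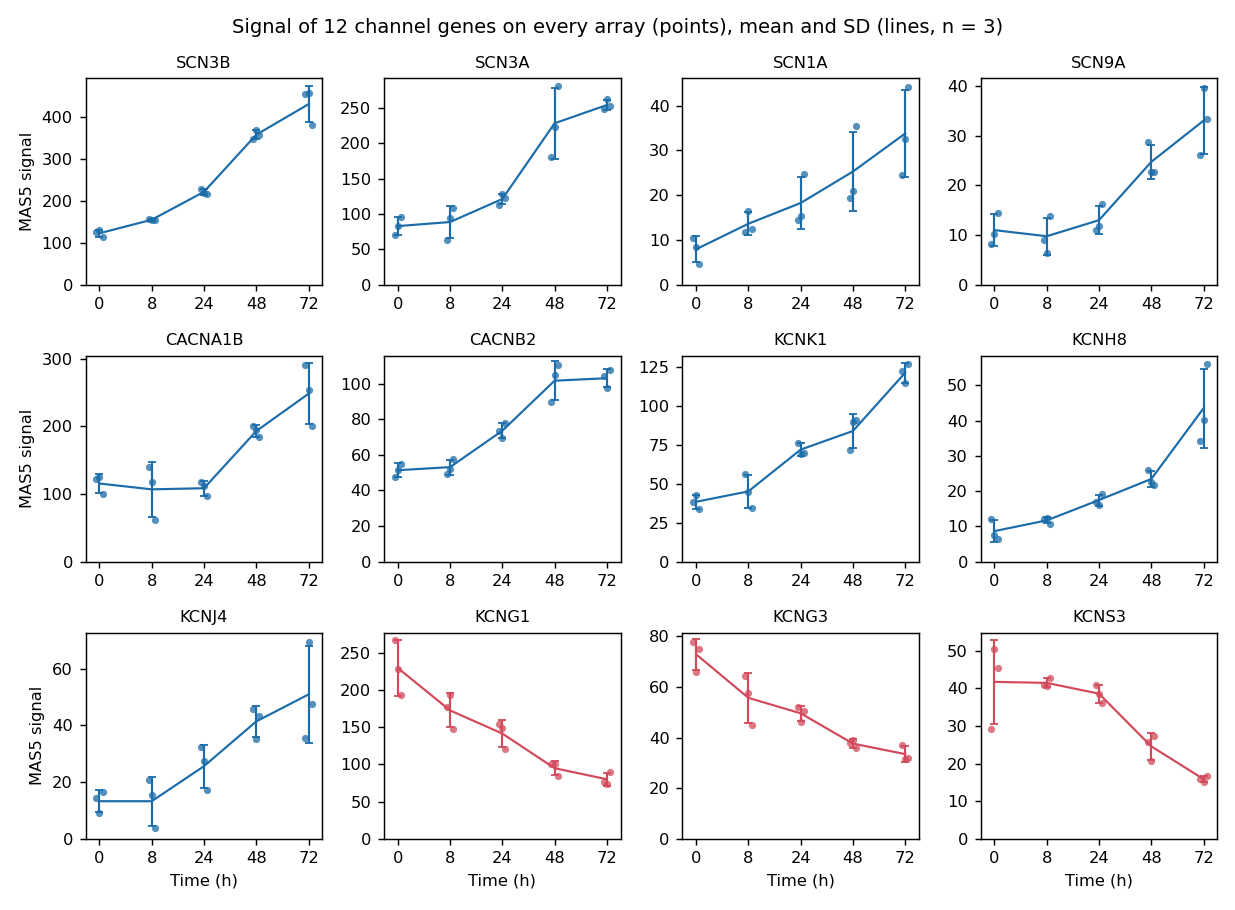
MAS5 signal (y axis, linear) against time (x axis, hours) for 12 member genes, with each array as a point and the mean and SD of the 3 arrays as a line and bars, blue for genes higher and red for genes lower at 72 h. SCN3B mean signals run from 123 at 0 h to 432 at 72 h and those of KCNG1 from 229 to 79.9.

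Among calcium channel genes 10 were tested of 25 on the array, and 1, 4 and 6 of them were higher at 24, 48 and 72 h, where 7.74%, 26.3% and 32.8% of all genes were, with 1 lower at 72 h. One of them, CACNA2D2, passed the filter only through later arrays. CACNA1B encodes the pore of N-type channels, which trigger transmitter release at nerve endings. Its signal was 122.5, 124.9 and 99.5 at 0 h, 140.2, 118.6 and 62.3 at 8 h, 117.9, 111.4 and 96.6 at 24 h, 200.2, 195.4 and 183.9 at 48 h and 290.2, 254.2 and 200.8 at 72 h. The arrays up to 24 h overlapped each other and the late ones stood clear of those at 0 h. The log2 change was -0.15, -0.08, 0.67 and 1.0 ± 0.19 (SE) at 8, 24, 48 and 72 h, called at 48 h (limma, adjusted p = 0.00726) and 72 h (0.000207).

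The other calcium channel pores moved less or not measurably. CACNA1H, a T-type pore that opens near rest, read 20.6, 29.6 and 26.7 at 0 h and 73.3, 65.9 and 20 at 72 h, so that the third 72 h array lay below all 0 h arrays. Its log2 change was -0.17, 0.38, 0.55 and 0.63 ± 0.25 (SE) at the 4 later times, called at 72 h only (limma, adjusted p = 0.0401). That call was lost without any 0 h array and without the first or second 72 h array (0.39 to 0.70, adjusted p from 0.0517 to 0.219), while without the third 72 h array the change was 1.04. It was also lost after centring (0.51, 0.075) and quantile normalisation (0.51, 0.0828). CACNA1D, an L-type pore, read 21.7, 22 and 19.3 at 0 h and 23.8, 24 and 8.5 at 72 h, and was called at no time (log2 changes of 0.29, 0.01, -0.13 and -0.12).

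Auxiliary calcium channel subunits gave 4 higher calls at 72 h, in 2 of 2 tested alpha2delta genes and 2 of 3 beta genes. Of 2 tested gamma genes 1 was lower. Over all genes 32.8% were higher and 22.7% lower. CACNB2, a cytoplasmic beta subunit that brings the pore to the membrane, was the only calcium channel gene called at 24 h. Its signal was 47.4, 51.6 and 55.1 at 0 h, 73.5, 69.2 and 77.9 at 24 h, 89.5, 104.9 and 110.5 at 48 h and 104.1, 97.5 and 107.5 at 72 h, with no overlap after 8 h. The log2 change was 0.04, 0.41, 0.80 and 0.82 ± 0.11 (SE), with limma adjusted p of 0.0176, 1.15e-05 and 4.59e-06 at 24, 48 and 72 h. The 24 h call was lost without the first 0 h array or the first or the third 24 h array (0.37 to 0.41, 0.0509 to 0.0738) and under both other scalings, and with the mean of its probe sets (0.28, 0.0892). CACNA2D2, an extracellular alpha2delta subunit, read 11.5, 17.5 and 19.6 at 0 h and 43, 42.6 and 39.5 at 72 h. Its log2 change was 0.53 at 48 h (0.0208) and 0.85 at 72 h (0.000513), and the 48 h call was lost without the first 0 h or the first or second 48 h array (0.42 to 0.52, 0.0546 to 0.0958) and, narrowly, after centring (0.43, 0.05002) and quantile normalisation (0.42, 0.055).

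CACNA2D1 and CACNB3 were called with small changes. CACNA2D1, the alpha2delta subunit that binds gabapentin, read 127.4, 153.7 and 135.8 at 0 h and 197.5, 177.6 and 153.6 at 72 h, where 1 array fell just within the 0 h range. Its log2 change was 0.16, -0.09, 0.33 and 0.31, called at 48 h (limma, adjusted p = 0.0426) and 72 h (0.0466). The 72 h call was lost in 9 of 15 fits that left out 1 array (0.0515 to 0.183), those without any 24 h array, the first or the third 0 h array, the first or second 72 h array, or the second 8 h or 48 h array, and the 48 h call in 6 (0.0504 to 0.143). CACNB3, another beta subunit, read 111.2, 93.3 and 97.9 at 0 h and 145.5, 127.9 and 114.5 at 72 h, and its log2 change of 0.31 was called at 72 h only (0.0282), after 0.04, 0.16 and 0.23 at the earlier times. That call was lost without the second or the third 0 h or the first or second 72 h array (0.0564 to 0.134). The 72 h calls of both were lost with the mean of their probe sets (0.16 for CACNA2D1 and 0.27 for CACNB3). They were also lost after centring (0.19 for CACNA2D1 and 0.20 for CACNB3) and after quantile normalisation (0.24 and 0.23), as was the 48 h call of CACNA2D1 (0.23 and 0.26).

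CACNG4, a gamma family member known mainly as an auxiliary subunit of AMPA receptors, was the calcium channel gene called lower at 72 h. It read 220.1, 160.1 and 192.5 at 0 h and 185.4, 47.7 and 75.7 at 72 h, so that 1 of the 3 late arrays lay within the 0 h range. On the log2 scale the difference from 0 h was -0.96 ± 0.30 (SE; limma, adjusted p = 0.0119), and without the second 72 h array it was -0.60 (0.09). The other bright probe sets of the gene changed by 0.33 and -0.02, neither called, and the mean of its probe sets changed by -0.22 (0.170).

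Of 14 tested Kv alpha genes 4 were higher and 3 lower at 72 h, close to the 32.8% and 22.7% of all genes. The 3 that fell (KCNG1, KCNG3 and KCNS3) all encode silent subunits, which form no channel alone and modify the Kv channels they join. A further silent subunit, KCNS2, was called higher, and the other tested silent subunits, KCNS1 and KCNV1, were not called (-0.27 and -0.23 at 72 h).

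KCNG1 had the largest fall of any tested member. Its signal was 267, 228.4 and 192.7 at 0 h, 176.6, 192.9 and 147.7 at 8 h, 153.6, 149.1 and 121.1 at 24 h, 100, 100.3 and 84 at 48 h and 76.1, 73.7 and 90 at 72 h. From 24 h on every array lay below those at 0 h. On the log2 scale the difference from 0 h was -0.38 at 8 h (not called), -0.64 at 24 h (limma, adjusted p = 0.00329), then -1.14 (1.75e-06) and -1.35 ± 0.13 (SE; 1.07e-07) at 48 and 72 h. A dimmer KCNG1 probe set went from 29.8 ± 4.27 (SD, n = 3) to 12.4 ± 7.87 between 0 and 72 h, called at 72 h in the fit over probe sets (-0.72, adjusted p = 0.022) and at no earlier time. With the mean of both probe sets the 24 h call was lost (-0.39, 0.123).

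KCNG3 and KCNS3 fell as well. KCNG3 read 77.6, 66 and 75.2 at 0 h, 52, 46.3 and 50.5 at 24 h, 38, 39.1 and 35.8 at 48 h and 37, 31.4 and 32 at 72 h, with no overlap from 8 h on. The fitted log2 change was -0.32, -0.44, -0.73 and -0.85 ± 0.12 (SE), called at 24 h (limma, adjusted p = 0.0258), 48 h (0.000126) and 72 h (1.52e-05). The 24 h call was lost without the first or the third 0 h array or any 24 h array (-0.46 to -0.40, 0.052 to 0.0925). KCNS3 read 29.1, 50.5 and 45.5 at 0 h, stayed at 36.2 to 42.8 on the 8 h and 24 h arrays, and read 25.7, 20.6 and 27.4 at 48 h and 15.9, 15 and 16.7 at 72 h. Its change in log2 units was 0.01, -0.06, -0.49 and -0.84 ± 0.14, called at 48 h (0.0101) and 72 h (8.85e-05). The 48 h call was lost without the second 0 h or second 48 h array (-0.42 to -0.38, 0.0513 to 0.0655), and adding 1 or 64 before the log made the 72 h change -1.30 or -0.40, both called.

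KCNH8, a pore of the Elk family, rose most among the tested Kv alpha genes, and was among those that passed the filter only through later arrays. It read 12.1, 7.6 and 6.3 at 0 h, 17, 16.2 and 19.2 at 24 h, 25.9, 22.6 and 21.8 at 48 h and 34.3, 40.2 and 55.9 at 72 h. Every later array from 24 h on lay above the 0 h arrays. The fitted log2 change was 0.17, 0.45, 0.68 and 1.26 ± 0.15 (SE), called at 48 h (limma, adjusted p = 0.00148) and 72 h (1.73e-06), and at 72 h it was 2.22 with 1 added before the log and 0.56 with 64.

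KCNQ5, a pore of the slow M-current that restrains repetitive firing, read 25.2, 24.2 and 26.9 at 0 h, 59.1, 59.3 and 48.4 at 48 h and 52.9, 50.7 and 47.4 at 72 h. As a log2 change this was 0.13, 0.39, 0.79 and 0.68 ± 0.13 (SE), called at 48 h (limma, adjusted p = 8.72e-05) and 72 h (0.000228). KCNH2, the pore of the rapid delayed rectifier of heart muscle and a channel studied in neuroblastoma cells, read 401.8, 391.4 and 394.4 at 0 h and 546.2, 526.4 and 511.5 at 72 h, with no overlap. The fit gave a log2 change of 0.17, 0.30, 0.24 and 0.40 ± 0.09, with adjusted p of 0.0391, 0.0487 and 0.00139 at 24, 48 and 72 h. The 72 h call was kept in every fit that left out 1 array. The call at 24 h was lost in 6 of 15 such fits (0.0514 to 0.187), those without any 0 h array, the first or the third 24 h array or the second 48 h array, and the call at 48 h in 11 (0.0553 to 0.121). Centring ended both (0.24 at 24 h and 0.14 at 48 h), quantile normalisation the one at 48 h (0.24, 0.0516) and the mean of its probe sets the one at 24 h (0.19). A dimmer KCNH2 probe set read 74.2 ± 5.12 (SD, n = 3) at 0 h and 123 ± 14.8 at 72 h (0.62 in the fit over probe sets, adjusted p = 0.0017). It was not called at 24 or 48 h. KCNS2 read 18.1, 21 and 21.1 at 0 h and 31.1, 46.6 and 28.7 at 72 h (0.50, limma adjusted p = 0.0257), a call lost without the first 0 h or second 72 h array (0.35 to 0.46, 0.0737 to 0.140) and under both other scalings (0.38 centred and 0.37 by quantiles).

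Of 12 genes for auxiliary Kv subunits 3 were tested, and 2 of them were higher at 72 h, against 32.8% of all genes. KCNAB2, a cytoplasmic beta subunit that passed the filter only through later arrays, read 9.1, 4.7 and 20.3 at 0 h, 41.9, 28.6 and 30.2 at 48 h and 27.8, 46.6 and 33.7 at 72 h. On the log2 scale the difference from 0 h was 0.48, 0.60, 0.89 and 0.95 ± 0.21 (SE), called at 48 h (limma, adjusted p = 0.00231) and 72 h (0.000929), with 1.76 and 0.41 at 72 h when 1 or 64 was added before the log. KCNAB1, its relative, read 41.7, 37.2 and 51.6 at 0 h and 65.5, 71.1 and 50.5 at 72 h, where 1 array lay within the 0 h range. Its log2 change of 0.40 at 72 h (0.041) was lost without the first or second array of 0 h or of 72 h (0.31 to 0.38, 0.0945 to 0.149) and under both other scalings (0.28 centred and 0.27 by quantiles), and with the mean of its probe sets (0.27). KCNIP2, a calcium-binding partner of Kv4 pores, was called at 48 h only. It read 18.9, 16.6 and 19.8 at 0 h, 25.6, 27.6 and 30.1 at 48 h and 17.8, 19.6 and 16.1 at 72 h, and its 48 h change of 0.35 (0.0465) was lost in 11 of 15 fits that left out 1 array (0.0516 to 0.132) and with the replicate number as a block (0.0543). It was also lost after centring (0.25) and quantile normalisation (0.23).

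Among calcium- and sodium-activated potassium channel genes, 4 of 11 were tested and 2 were higher and 1 lower at 72 h, against 32.8% and 22.7% of all genes. KCNN1, a small-conductance channel opened by calcium through calmodulin, read 34.6, 39.2 and 31.3 at 0 h, 53.8, 59.6 and 56.9 at 24 h, 49.3, 59.3 and 52.3 at 48 h and 61.4, 61 and 54.3 at 72 h. It was higher from 24 h on with little further change: 0.09, 0.51, 0.45 and 0.56 ± 0.14 (SE) on the log2 scale, with limma adjusted p of 0.0231, 0.0162 and 0.003 at 24, 48 and 72 h. The 24 h call was lost without the first or the third 0 h or the second or the third 24 h array (0.0622 to 0.0876), the 48 h call without the third 0 h or second 48 h array (0.0621 to 0.0686), and both under either other scaling. KCNT2, a sodium-activated pore, read 124, 123.5 and 114.7 at 0 h and 178.9, 177.8 and 176.7 at 72 h (0.50 ± 0.15, 0.00848). At 48 h its change of 0.33 was not called (0.0866), but was with the replicate number as a block (0.039).

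KCNMB4, the beta subunit of large-conductance channels found in neurons, was the one that fell. It read 56.9, 51.5 and 48.9 at 0 h, 36.7, 24.3 and 35.4 at 48 h and 33.4, 32.7 and 28.9 at 72 h, and its log2 change was -0.12, -0.35, -0.52 and -0.52 ± 0.13 (SE), called at 48 h (limma, adjusted p = 0.00465) and 72 h (0.00316). Its other bright probe set went from 30.6 ± 6.04 (SD, n = 3) to 26.2 ± 3.7 and was not called. KCNMA1, the pore that this subunit joins, read 26.2, 26.7 and 19.2 at 0 h and 55.4, 29.5 and 16 at 72 h, a spread that covers the 0 h range, and was called at no time (-0.05, 0.02, 0.43 and 0.24).

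Inward rectifiers gave 2 higher calls at 72 h among 5 tested genes of 13 on the array, against 32.8% of all genes, and both of these passed the filter only through later arrays. KCNJ4, a strong rectifier that holds the resting potential, read 14.4, 9 and 16.4 at 0 h, 20.7, 15.3 and 3.8 at 8 h, 32.3, 27.3 and 17.3 at 24 h, 45.8, 35.2 and 43.3 at 48 h and 35.7, 69.5 and 47.7 at 72 h. The late arrays were all above the early ones, with a wide spread at 72 h. Its change in log2 units was -0.04, 0.50, 0.98 and 1.17 ± 0.22 (SE), called at 48 h (limma, adjusted p = 0.00171) and 72 h (0.000234), and at 72 h it was 1.85 with 1 added before the log and 0.56 with 64. KCNJ2, another strong rectifier, read 9, 17.9 and 16.4 at 0 h and 30.4, 20.1 and 28.9 at 72 h (0.48, 0.0277). That call was lost without the first 0 h array or the first or the third 72 h array (0.35 to 0.44, 0.0761 to 0.137) and under both other scalings. Probe sets shared by KCNJ12 and KCNJ18, both inward rectifiers, had been left out of the members. Their mean signals were 64.5, 49.4 and 70.9 at 0 h and 108.8, 97.9 and 152.2 at 72 h.

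KCNJ6 encodes a pore gated by G proteins. In the fit without a block it was called lower at 48 h and at no other time. It read 48.7, 50.9 and 78.5 at 0 h, 32.8, 31.5 and 42.4 at 48 h and 34.8, 26.9 and 57.4 at 72 h, and the third array was the highest of its time at 0, 8, 24, 48 and 72 h. The fitted log2 change was 0.02, -0.45, -0.53 and -0.45 (limma adjusted p of 0.985, 0.161, 0.0439 and 0.0708). The 48 h call was lost in 5 of 15 fits that left out 1 array (-0.61 to -0.36, 0.0506 to 0.209), those without the second or the third 0 h, first or second 48 h, or second 24 h array, and with the mean of its probe sets (-0.52, 0.066). With the replicate number as a block it was called lower at 24 h (0.0215), 48 h (0.00237) and 72 h (0.0057).

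KCNJ8, a pore of ATP-sensitive channels, gave unlike readings from its bright probe sets. The brighter one read 89.5, 107 and 103.8 at 0 h and 109.4, 117 and 115.9 at 72 h, and was not called (0.17). The other read 101.8, 88.7 and 109.3 at 0 h, 85.3, 56.3 and 45.8 at 24 h, 62.5, 57.3 and 57.8 at 48 h and 43.4, 52.4 and 44.5 at 72 h, with log2 changes of -0.59, -0.62 and -0.88 at 24, 48 and 72 h, all called in the fit over probe sets (limma adjusted p of 0.0259, 0.00513 and 0.000177). Their mean changed by -0.36 at 72 h (adjusted p = 0.0394), so the direction for KCNJ8 turns on which probe set is read.

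K2P leak channels gave 1 higher and 2 lower calls at 72 h among 6 tested genes of 14, against 32.8% and 22.7% of all genes. KCNK1, a weakly rectifying leak channel, read 38.4, 42.8 and 34.1 at 0 h, 56, 44.6 and 34.7 at 8 h, 76.4, 69.3 and 70 at 24 h, 71.5, 89.4 and 90.6 at 48 h and 122.4, 114.4 and 126.9 at 72 h. From 24 h on no array overlapped those at 0 h. As a log2 change this was 0.15, 0.69, 0.87 and 1.34 ± 0.13 (SE), with limma adjusted p of 0.00182, 3.79e-05 and 1.37e-07 at 24, 48 and 72 h, and each of these calls was kept in every fit that left out 1 array and under both other scalings. Its dimmer probe set went from 15.7 ± 2.29 (SD, n = 3) to 34.2 ± 6.47 at 72 h (0.65, adjusted p = 0.0071 in the fit over probe sets) and was not called at 24 or 48 h. The 0 h mean of that probe set lay below the split, so it passed the filter only through later arrays.

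KCNK2, a leak channel opened by stretch and lipids, read 85.7, 102.7 and 76.5 at 0 h, 53.9, 57.9 and 58.5 at 48 h and 51.6, 56.3 and 50.9 at 72 h. Its change in log2 units was -0.08, -0.16, -0.51 and -0.59 ± 0.12 (SE), called at 48 h (limma, adjusted p = 0.00229) and 72 h (0.000479). KCNK5, a leak channel opened by alkaline medium, read 53.5, 52 and 37.4 at 0 h and 37.2, 25.5 and 27 at 72 h, where the highest late array lay just under the lowest early one. It was called at 72 h only (-0.47, 0.00977).

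KCNK3, an acid-sensitive leak channel, rose on 1 of 2 bright probe sets. The brighter read 19.5, 18.7 and 17.2 at 0 h and 37.8, 49 and 22 at 72 h and was called at no time (-0.18, 0.10, 0.46 and 0.57, limma adjusted p = 0.0541 at 72 h). It was called at 72 h in 5 fits that left out 1 array, those without the first or the third 48 h, second or the third 8 h, or the third 72 h array. The other read 12.5, 10.2 and 6.2 at 0 h and 58.3, 53.9 and 30.5 at 72 h, with changes of 0.95 at 48 h and 1.29 at 72 h, both called in the fit over probe sets (0.00517 and 0.000282). Its 0 h arrays all lay below the split, so it passed the filter only through later arrays.

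**Figure D4:**
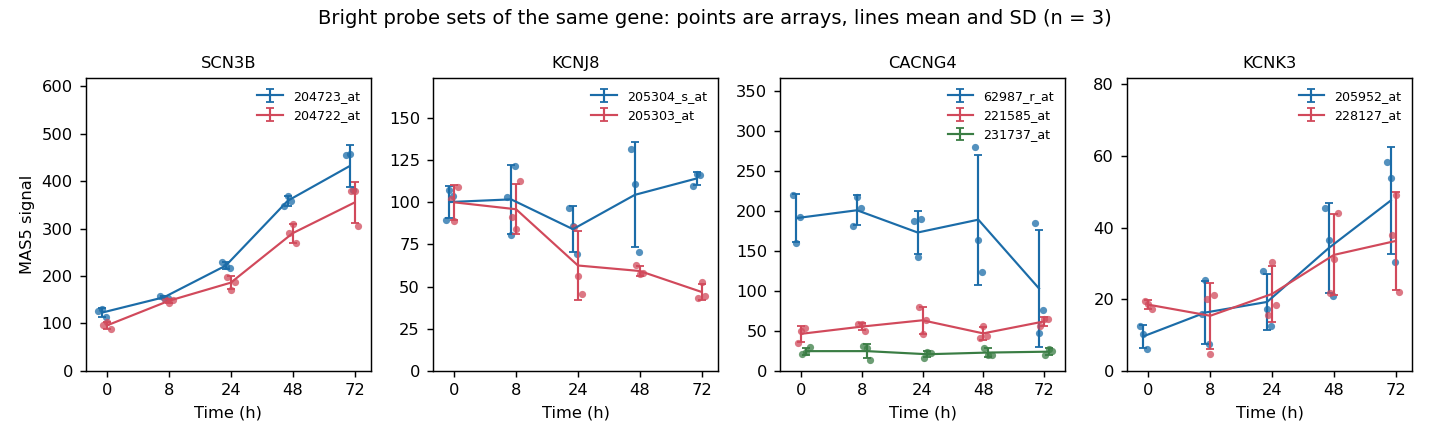
MAS5 signal (y axis, linear) against time (x axis, hours) of the bright probe sets of SCN3B, KCNJ8, CACNG4 and KCNK3, 1 colour for each probe set, with arrays as points and the mean and SD of 3 arrays as lines and bars. Both SCN3B probe sets rise, while for KCNJ8 one ends at 114 and the other at 46.8 from the same start of about 100, and for CACNG4 only the brightest one falls.

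The bright noncoding RNA, KCNQ1OT1, is an imprinted transcript antisense to a potassium channel gene. Its brighter probe set read 43.3, 26.6 and 46.1 at 0 h, 51.5, 70.3 and 1.6 at 8 h and 104.4, 62.5 and 56.9 at 72 h, with 1 very low array at 8 h, and was not called (0.71 at 72 h, limma adjusted p = 0.123). Its dimmer probe set was called at 72 h in the fit over probe sets (13.6 ± 1.46 to 38.2 ± 8.33, SD, n = 3; 0.86, adjusted p = 0.00241). The 0 h mean of that dimmer probe set lay below the split, so it passed the filter only through later arrays. KCNRG changed by 0.12 and was not called.

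Among the 79 bright probe sets 37 were called at 72 h, 28 higher and 9 lower, against 46.4% of all bright probe sets (27.1% and 19.3%). Some of the higher ones, such as the dimmer probe sets of KCNK1, KCNK3 and KCNQ1OT1, passed the filter only through later arrays. The balance is therefore not read against these shares. Of the 29 member genes called at 72 h, 13 had another bright probe set. It was called the same way in 5 of these and the opposite way in none. In the other 8 (CACNA2D1, CACNB3, CACNG4, KCNAB1, KCNMB4, KCNS2, KCNT2 and SCN8A) no other bright probe set was called the same way. The remaining called genes had 1 bright probe set only and rest on it too. At 24 h another probe set was called the same way in 1 of 5 such genes, and at 48 h in 2 of 9. How often this held over all genes was not computed. Among the 29, the 72 h arrays of CACNA1H, CACNA2D1, CACNG4 and KCNAB1 overlapped those at 0 h. The calls rest on these same arrays, so a lack of overlap in the others is no further support. A total of 15 higher and 6 lower calls at 72 h were kept in all 15 fits that left out 1 array and under both other scalings. The higher ones were SCN1A, SCN3A, SCN3B, SCN9A, CACNA1B, CACNA2D2, CACNB2, KCNAB2, KCNH2, KCNH8, KCNJ4, KCNK1, KCNN1, KCNQ5 and KCNT2, and the lower ones KCNG1, KCNG3, KCNK2, KCNK5, KCNMB4 and KCNS3. Of the higher ones, SCN1A, SCN9A, CACNA2D2, KCNAB2, KCNH8 and KCNJ4 had passed the filter only through later arrays. The share of all genes kept in the same fits was not computed, so the balance of these counts is not read. The 18 tested members never called against 0 h were CACNA1D, CACNB1, CACNG6, KCNB2, KCNC1, KCNC4, KCNH7, KCNJ5, KCNJ8, KCNK3, KCNK12, KCNK17, KCNMA1, KCNQ1OT1, KCNQ3, KCNRG, KCNS1 and KCNV1. A member not called is not shown to be steady, and of these KCNC1, which had the tightest 0 h arrays (361.4, 362.2 and 362.3), read 384.4, 406.5 and 498.8 at 72 h (0.23, adjusted p = 0.0628).

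The 87 genes with dim probe sets only, and the 199 dim probe sets in all, mostly gave signals near the floor of the array. Their mean signals had a median of 4.76 and ran from 0.847 to 19.9, and 136 of them stayed below 16.6 on every array. Such a reading is a bound on what the array can see and no proof of absence. SCN2A, a pore of central neurons, read 2.4, 3.3 and 1.5 at 0 h, 5.4, 7.9 and 9.3 at 24 h and 18.7, 13 and 12.5 at 72 h. CACNA1A, the P/Q-type pore, had mean signals of 14.5 ± 2.88, 15.7 ± 6.15, 12.3 ± 4.2, 9.0 ± 5.04 and 10.1 ± 5.26 (SD, n = 3) at 0, 8, 24, 48 and 72 h. CACNA1C, an L-type pore, had 14.4 ± 7.92, 7.53 ± 5.77, 11.3 ± 7.65, 11 ± 6.75 and 21.2 ± 7.11 at these times, and KCNN3, a small-conductance channel, had 2.27 ± 0.751, 4.3 ± 3.48, 2.4 ± 1.23, 5.27 ± 3.55 and 4.9 ± 0.964.

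KCND2, a pore of the fast A-type potassium current, was dim by its mean but not at the end of the course. Its signal was 1.1, 8 and 5.3 at 0 h, 5.2, 4.3 and 7.4 at 8 h, 9.1, 7.7 and 5.7 at 24 h, 17.1, 19.3 and 30.1 at 48 h and 64.1, 76.9 and 37.4 at 72 h. All late arrays lay above all arrays up to 24 h. In a fit with no brightness filter, over 19775 genes, its log2 change was 0.87 ± 0.20 (SE) at 48 h (limma, adjusted p = 0.00346) and 1.84 ± 0.20 at 72 h (1.923e-06). In that fit 8 of the 87 dim members were higher and 1 lower at 72 h, against 19.6% and 13% of all genes. All genes here include the bright ones, and the share among dim genes alone was not computed. The others called higher were KCNMB2-AS1 (0.84), KCNJ11 (0.78), SCN2A (0.74), KCNH6 (0.59), CACNG7 (0.55), KCNJ5-AS1 (0.45) and KCNJ2-AS1 (0.42), and KCNG4, a silent subunit, was lower (-0.43). After KCND2, the dim probe sets with the highest single arrays were those of KCNJ11 (44.7 at 72 h), CACNB1 (37.5 at 24 h), KCNQ1 (36.7 at 24 h) and KCNC4 (32.4 at 8 h). Of these, KCNJ11, a pore of ATP-sensitive channels, read 23.6, 11.6 and 1 at 0 h and 30.2, 44.7 and 17.7 at 72 h, and the arrays of both times overlapped.

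Other genes of membrane excitability were read for context, in lists chosen with earlier results of these data known. Of 15 tested genes for proteins that anchor channels or act on them (22 on the array), 12 were higher and none lower at 72 h. Over all genes tested 32.8% were higher and 22.7% lower. The median log2 change of the 15 was 1.03. NFASC, the cell adhesion molecule that gathers sodium channels, went from 58.3 ± 3.39 (SD, n = 3) to 193 ± 8.71 (log2 change 1.49, limma adjusted p = 2.38e-08). CNTN1, a contactin that associates with sodium channels, rose by 1.38 and ANK2, an ankyrin of the axon, by 1.23, and NEDD4L, a ubiquitin ligase that acts on channels, went from 54.2 ± 5.14 to 146 ± 17.6. Among 10 other voltage-gated and leak channel genes 6 were higher and 1 lower, against the same shares, with CLCN7 (1.10), CLCN4 (1.07), CLCN6 (0.85) and CLCN3 (0.73), which encode chloride transporters of endosomes and lysosomes, changing most. Of 8 pump and exchanger genes 3 were higher and 2 lower, near those shares, including the plasma membrane calcium pumps ATP2B2 (1.36) and ATP2B3 (1.19), the sodium-calcium exchanger SLC8A1 (0.88) and the sodium pump subunit ATP1B1 (-1.09). REST, which represses sodium channel and other neuronal genes outside the nervous system, fell from 187 ± 7.11 to 123 ± 9.11 at 72 h (-0.55, 0.000106). It had fallen at 24 h (-0.57) and was not called at 48 h (-0.22). Of its 4 partners tested, SIN3A was lower (-0.34), EHMT2 (0.54) and RCOR3 (0.31) were higher, and RCOR1 was not called. Several of these calls were lost without 1 array at 72 h: RCOR3 without the second or the third 0 h or the first or second 72 h array (0.17 to 0.33), SIN3A without the third 0 h or second 72 h array (-0.29 to -0.28) and CLCN5, a further chloride transporter and the one lower (-0.34), without any 0 h array or the second 72 h array (-0.36 to -0.25). RCOR3 was also lost under both other scalings, and EHMT2 with the mean of its probe sets (0.21).

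CDK2, the target of the hairpin, fell from 232 ± 16.3 (SD, n = 3) at 0 h to 94.5 ± 5.56, 80.4 ± 7.72, 48.6 ± 7.36 and 30.1 ± 9.9 at 8, 24, 48 and 72 h, with log2 changes of -1.16, -1.36, -1.94 and -2.45 (limma adjusted p = 1.2e-10 at 72 h). All arrays had been scaled alike, with a trimmed mean of 100.01, and their median signals ran from 15.1 to 20.5. In array weights estimated over all genes the lowest were 0.356 for the third 72 h array and 0.405 for the third 8 h array, and without both 33 members were called at 72 h. Calls over all genes were not counted in that fit. Of 7 measured markers of noradrenergic neuroblastoma 6 were bright and TH, the tyrosine hydroxylase of catecholamine synthesis, was at 2.8 on average. Their summed signal was 9184 to 9694 on the 0 h arrays and 11152 to 12108 at 72 h, and its part in the channel results was not tested. None of 4 Schwann or mesenchymal, 4 immune and 4 muscle markers was bright, with summed signals at 72 h of 28.4 to 35.9, 24.0 to 43.1 and 32.4 to 37.3, against 17.7 to 37.1, 17.7 to 48.3 and 7.9 to 26.9 at 0 h. Of 5 fibroblast markers COL1A1 and PDGFRB were bright (sums of 250.5 to 448 at 0 h and 295 to 509 at 72 h), and PECAM1 and KRT8 were the bright ones of 3 endothelial and 3 epithelial markers, at 19.0 and 21.1.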

How the data were processed

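Total RNA (4 µg, per the labels' protocols) was labelled for 15 Affymetrix U133 Plus 2.0 arrays. The deposited table holds 1 linear signal intensity per probe set and array, made by the authors with MAS5 and GCOS per the submitters' processing notes (versions not given in the sources used here). It was used as deposited, on the log2(signal + 16) scale. Of 54675 probe sets, 62 were controls, 41091 named 1 gene, 1801 several and 11721 none. The 27307 at or above the median were kept as bright, and the brightest probe set of each gene represented it (11774 genes). All 5 times were fitted together in limma 3.58.1 (lmFit, eBayes with trend) under R 4.3.3, with Benjamini-Hochberg adjustment over all genes and a threshold of 0.05. Tables, promoter searches and figures used Python 3.11.15, pandas 2.3.3 and matplotlib 3.10.9. The number of arrays limits the precision.

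The members and gene lists were chosen with earlier results of these data known. Values are given for members called at 8 h or with an absolute log2 change of 1, for up to 4 called members with the greatest change in each family and time, for those at the split, for sentinel genes, for the 5 dim probe sets with the highest array and for up to 4 called genes of each other list. KCNS2, KCNS1, KCNV1, KCNJ8, KCNC1, KCNQ1OT1, KCNRG, RCOR1 and the dim genes called without a filter were named after their values were seen.

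Whether arrays with the same replicate number belong together is not in the labels. Deviations from the group means correlated at -0.08 to 0.35 between arrays that share a number (30 pairs, median 0.12) and at -0.28 to 0.17 between others (60 pairs, median -0.08). Every one of the 3 correlations was over 0.1 between 0 and 48 h (0.12 to 0.21), 24 and 72 h (0.12 to 0.19) and 48 and 72 h (0.12 to 0.35). The replicate number entered as a block in an alternative fit. Further alternatives changed the number added, the scaling, the filter, the probe sets per gene, the variance prior, array weights, the arrays fitted and the threshold, or left out each array in turn.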

Additional observations from a re-analysis of the deposited data

Results flagged for a closer look

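Because every time is set against the same 0 h arrays, a difference between a time and the one before it is the difference of their changes, and limma tested it directly over all 11774 genes. From 8 to 24 h 4 members passed (5.78% of all genes did): KCNK1 by 0.54, SCN3B by 0.48 and CACNB2 by 0.37 upward and KCNK12, a K2P gene never called against 0 h, by -0.48 on the log2 scale. The 8 h arrays of KCNK12 read 69.1, 56.2 and 80.3, against 49, 49.9 and 57.6 at 0 h and 39.9, 49.5 and 43.3 at 24 h. From 24 to 48 h 10 passed (22.9% of all genes): SCN3A by 0.81, CACNA1B by 0.75, SCN3B by 0.65, SCN9A by 0.49, CACNA2D1 by 0.42, CACNB2 and KCNQ5 by 0.39 each, and KCNG1 by -0.5, KCNS3 by -0.43 and KCNK2 by -0.35. From 48 to 72 h 2 passed (10.7% of all genes), KCNH8 by 0.58 and KCNK1 by 0.46. With the replicate number as a block SCN3B (0.25, adjusted p = 0.0439) and CACNG4 (-0.88, 0.0214) passed in that step too.

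Of the 87 members that the brightness filter had set aside, 8 were called higher and 1 lower (KCNG4, -0.43) at 72 h in the fit without a filter. Over all 19775 genes 19.6% and 13% were called, but these include the bright genes. The share among dim genes alone was not computed, so the counts are not read against these shares. The 8 were KCND2 (1.84), KCNMB2-AS1 (0.84), KCNJ11 (0.78), SCN2A (0.74), KCNH6 (0.59), CACNG7 (0.55), KCNJ5-AS1 (0.45) and KCNJ2-AS1 (0.42), as log2 changes.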

How the results depend on the processing

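Counts of member genes called were 0, 7, 23 and 29 at 8, 24, 48 and 72 h against 0 h, 29 by the F test, 4, 10 and 2 in the steps from 8 to 24, 24 to 48 and 48 to 72 h, and 37 for probe sets at 72 h. With an absolute log2 change of 1 in addition they were 0 at 24 h, 3 at 48 h, 7 at 72 h and by the F test, 0 in each step and 9 for probe sets. Over the brightest 25% of probe sets, where fewer members are tested, they were 4, 6 and 9 at 24, 48 and 72 h, 9 by the F test, 1, 5 and 0 in the steps and 9 for probe sets. With 1 added before the log they were 12 at 24 h and 0 in the last step. Centring gave 4 at 24 h and 6 in the middle step. Without a filter they were 4 at 24 h and 1 in the first step, and array weights gave 13 at 24 h. The mean of a gene's probe sets gave 1 at 8 h and 1 in the last step, probe sets tested singly 2 in the first step, and the arrays of the times compared alone 1 in the first and 1 in the last step. Leaving out the third 8 h and 72 h arrays, chosen after seeing the data, gave 1 in the first step. The cause of these shifts was not tested otherwise. Calls over all genes were counted for the main fit, the fit without a filter and the block only. Elsewhere it was not tested whether the members moved more than all genes did. With 1 array left out, the counts ran from 3 to 10 at 24 h, 15 to 24 at 48 h, 23 to 32 at 72 h, 25 to 30 by the F test, 1 to 5, 4 to 10 and 0 to 2 in the steps and 30 to 41 for probe sets, and were 0 at 8 h throughout. The replicate block gave 0, 10, 23 and 32 at the 4 times, 6, 11 and 4 in the steps and 40 probe sets. Over all genes the block gave 57, 1991, 5580 and 6878 at the 4 times, against 53, 1584, 5175 and 6531 in the main fit. In the steps the block gave 958, 3188 and 1732 over all genes, against 681, 2702 and 1258. Beside the calls named in the text it added SCN3A (0.0088), KCNJ6 (0.0215) and KCNQ5 (0.0457) at 24 h and KCNJ6 (0.0057), KCNH7 (0.0204) and KCNC1 (0.049) at 72 h, as adjusted p. With the mean of a gene's probe sets, KCNJ8 at 72 h turned to -0.36 and CLCN3 at 48 h to -0.0555, from 0.17 and 0.30. Low signals limit the dim members, whose log2 changes depend on the number added.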
